A study of Homo sapiens with 6 samples.

Results

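The ethanol-only regions were stretches of the genome with a called DNase-seq peak in 3 of 3 ethanol libraries and in 0 of 3 dexamethasone libraries of A549 cells. They were selected on those peak calls: the peaks of all 6 lists that shared at least 1 bp were merged, and a region counted as called in each library that had a peak in it. This gave 538 ethanol-only regions among 81216 merged regions, and 0.662% of all regions were thus called in this pattern. Because the calls of all 6 libraries chose these regions, their count and their strength are given as a description without a test.

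A549 is an established human lung adenocarcinoma cell line, here grown to 90% confluence. The cells of 3 libraries had received 100 nM dexamethasone, a synthetic glucocorticoid, for 1 h, and those of the other 3 libraries 0.02% ethanol, the vehicle, for 1 h. Libraries were numbered 1 to 3 within each treatment. The labels do not tell whether they came from separate cultures, so any spread between libraries may be technical. All values therefore describe a single tumour line at a single time, without untreated cells.

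DNase I cuts DNA where nucleosomes are displaced or loosely held, so DNase-seq peaks mark promoters, enhancers and insulators that are open for transcription factors. The ligand-bound glucocorticoid receptor enters the nucleus within minutes and mostly binds chromatin that is already open. At some sites it raises accessibility further. It also represses genes, among them inflammatory genes driven by AP-1 and NF-kB, and sites that lose accessibility are therefore of interest beside those that gain it. Gene annotation and sequence in the build of the peak lists (hg19) were not used here, so regions are named by position, and neither motifs nor genes are assigned to them.

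Each list gave a fold enrichment and a −log10 p for the summit of every peak. Both follow from the number of reads lying over the summit and from the local background, and solving for the reads gave a whole number for 357760 of 357761 peaks. Reads could thus be used beside the authors' folds. The lowest background in a list, which scales with sequencing depth if reads were extended alike, was 2.18, 2.26 and 2.35 reads in dexamethasone replicates 1 to 3 and 2.31, 2.31 and 2.38 reads in ethanol replicates 1 to 3. Its mean was 2.26 ± 0.085 reads with dexamethasone and 2.33 ± 0.044 with ethanol (SD, n = 3 each). The lists held 58360, 60646 and 58677 peaks with dexamethasone and 58281, 60453 and 61344 with ethanol. Depth and list length were therefore slightly higher on the ethanol side, with overlapping ranges, and their part in the number of ethanol-only regions was not tested.

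The ethanol-only regions were weak peaks in every ethanol library. Their median was 21 reads over the summit in ethanol replicate 1, 22 in replicate 2 and 22 in replicate 3, with ranges of 12 to 54, 12 to 57 and 13 to 67 reads. All peaks of these lists had medians of 38, 39 and 38 reads. The background at the same sites had a median of 2.98, 2.92 and 3.10 reads. The calling limit is given here as the fewest reads that, over the same background, reach the lowest −log10 p of that list (4.73, 4.73 and 4.70). Its median was 12, 12 and 13 reads, so a typical ethanol-only peak stood 8.5 to 9 reads above it. A peak must also hold over at least 200 bp, the shortest width in any list, so a site can pass the limit at a point without being called.

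The authors' fold enrichment at these regions had medians of 5.14, 5.37 and 5.32 in ethanol replicates 1 to 3. Their −log10 q had medians of 9.06, 9.54 and 9.41. Ranked by −log10 q within its own list, the typical peak lay at percentile 17.8, 18.9 and 18.8. Averaged over the 3 ethanol lists, the percentile of a region ranged from 2.79 to 46.0 with a median of 19.9, and none of the 538 regions averaged above 50. Only 24 regions had a peak above percentile 50 in any ethanol list, and none had it in 2 lists. By contrast, 262 regions (48.7%) had at least 1 ethanol peak in the lowest 10% of its list.

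The regions were narrow. The merged region spanned a median of 287 bp (211 to 655 bp), and the single peaks had median widths of 233, 229 and 234 bp in ethanol replicates 1 to 3. All peaks of these 3 lists had median widths of 309, 312 and 309 bp. Regions called in all 6 libraries had a median merged width of 482 bp, but this spans the peaks of 6 libraries and not of 3. The 3 ethanol libraries placed the summit close together, with a median distance between the outermost summits of 44 bp and all 3 within 100 bp in 475 regions (88.3%). In 28 regions the summits lay over 150 bp apart. Reads differed between the ethanol libraries by a median of 6 within a region. The highest value was in ethanol replicate 3 in 198 regions, in replicate 2 in 151 and in replicate 1 in 146, with ties in 43.

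As the regions were found by a pattern over 3 libraries, the regions called in exactly 3 libraries of both treatments served as comparison. These 18 mixed sets, each a different choice of 3 libraries, ranged in size from 118 to 514 regions (median 236.5). The dexamethasone-only set held 897. Equally numbered libraries of both treatments deviated together, and 12 of the mixed sets, the one of 514 regions included, held such a pair, which the ethanol-only set cannot. The 6 mixed sets with 1 library of each number held 118 to 297 regions, against 538 ethanol-only regions. In strength and shape the ethanol-only regions lay inside the range of the mixed sets. Their median of 21.5 reads compared with 20.7 to 23 reads, their median percentile of 19.9 with 16.4 to 20.8, their median fold of 5.37 with 4.89 to 5.48 and their median region width of 287 bp with 269 to 294 bp. The ratio of reads to the calling limit was the exception, with a median of 1.70 against 1.60 to 1.69, and 1.61 to 1.69 in the 6 sets with 1 library of each number. The median peak width of 239 bp was inside the 227 to 241 bp of the 18 sets. It was above the 227 to 237 bp of those 6. Dexamethasone-only regions had 26 reads, percentile 24.7 and a width of 355 bp at the median. No test was made of these differences, since strength is bound up with being called.

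**Figure D1:**
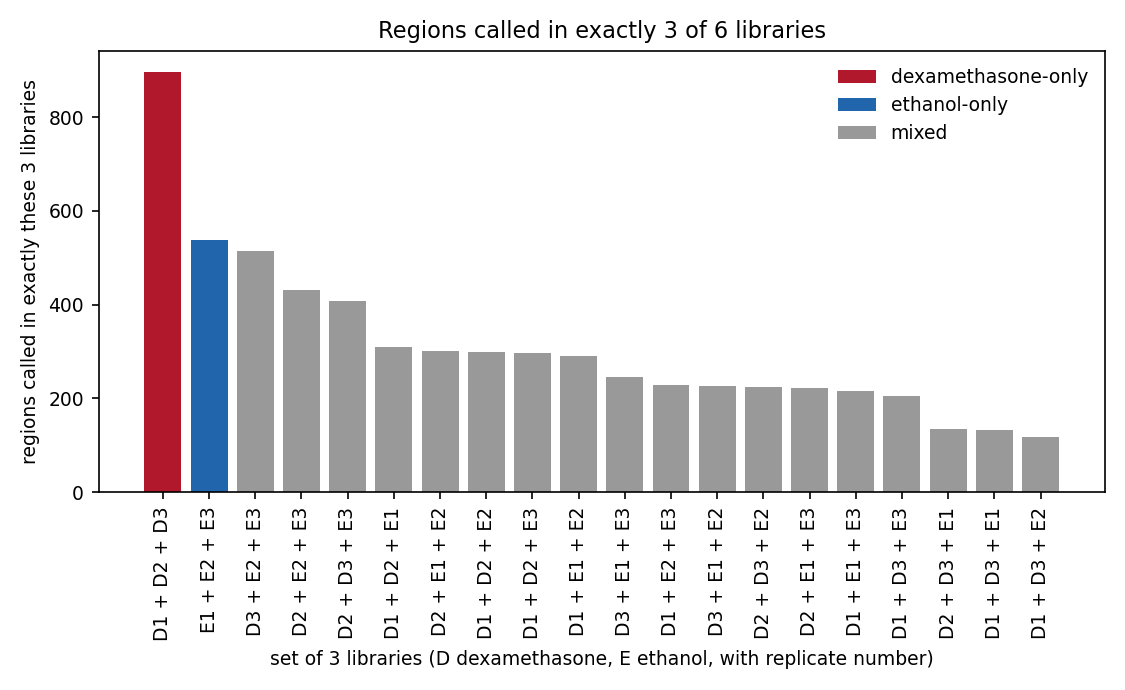
Number of regions (vertical axis) called in exactly 3 of the 6 libraries, for each of the 20 possible sets of 3 libraries (horizontal axis). The ethanol-only set (538 regions, blue) stands next to the largest mixed set (514 regions, grey), while the dexamethasone-only set (897 regions, red) stands above both.

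Strength was then held alike by sorting regions into bands of their mean percentile. Of the regions called in all 3 ethanol libraries, those with a mean ethanol percentile below 10 lacked any dexamethasone peak in 82 of 494 cases (16.6%). The share fell to 188 of 2112 (8.90%) between 10 and 20, to 190 of 4005 (4.74%) between 20 and 30 and to 63 of 5115 (1.23%) between 30 and 40. It was 15 of 5519 (0.272%) between 40 and 50 and 0 of 28601 above 50. Mixed sets gave 5.29 to 15.7% below 10, 2.57 to 10.5% between 10 and 20, 0.783 to 4.10% between 20 and 30 and 0.297 to 1.22% between 30 and 40. The ethanol share was thus above all 18 mixed sets in 3 of the 4 lowest bands and below 1 of them between 10 and 20. Between 40 and 50 it was again below 1 mixed set, and above 50 below 4. In the 6 sets with 1 library of each number the share reached at most 14.6%, 7.21%, 2.31%, 0.587% and 0.151% in the 5 bands up to percentile 50, each time below the ethanol share, while above 50 1 of the 6 sets was higher. This comparison was added after seeing the data. In the opposite direction, 93 of 5456 regions (1.70%) between 40 and 50 and 90 of 28091 (0.320%) above 50 were called in all dexamethasone and no ethanol libraries.

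**Figure D2:**
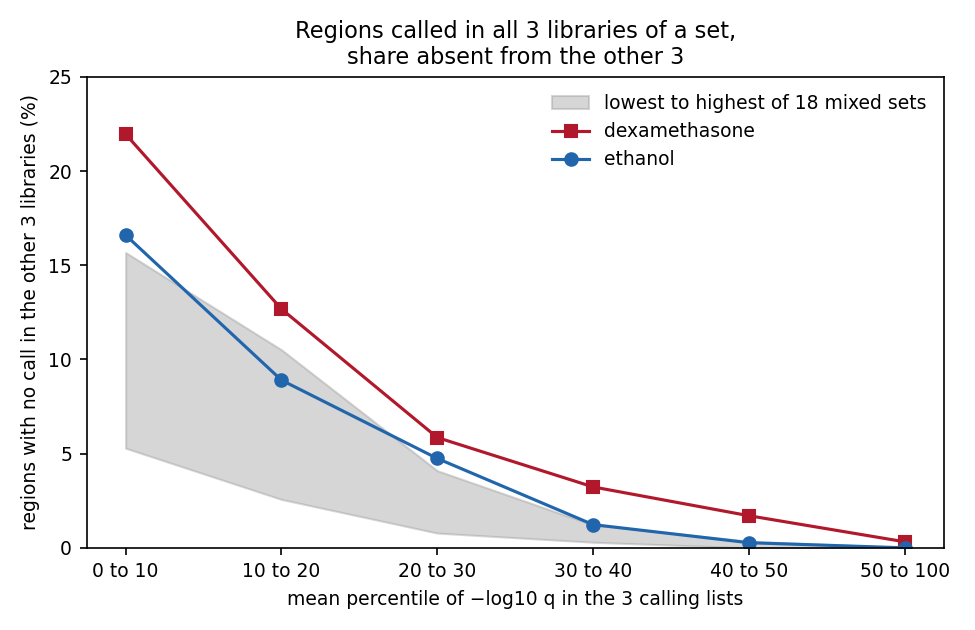
Share of regions called in all 3 libraries of a set that had no call in the other 3 libraries (vertical axis, percent), by the mean percentile of −log10 q in the 3 calling lists (horizontal axis). Ethanol (blue) starts at 16.6% and reaches 0 above percentile 50, whereas dexamethasone (red) is at 0.320% there and lies above ethanol in every band. Ethanol lies above the grey range of the 18 mixed sets below percentile 10 and between 20 and 40. It lies inside that range between 10 and 20 and between 40 and 50, and at its lower edge above 50.

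The edge of the selection was gradual. Regions called in 3 ethanol libraries and 1 dexamethasone library numbered 1411, and those with 2 dexamethasone calls 3963. Median reads in the ethanol libraries were 21.5 with 0, 23.3 with 1, 26.3 with 2 and 52.3 with 3 dexamethasone calls. In the 1411 regions the single dexamethasone peak had a median of 22 reads and lay at percentile 20.7 of its list, beside the 23.3 reads of the ethanol peaks. The dexamethasone libraries without a call have no value there, and a called peak must pass its limit. These medians therefore do not compare the treatments. The single dexamethasone peak came from replicate 1 in 383 regions, replicate 2 in 516 and replicate 3 in 512, so dexamethasone replicate 1 supplied the fewest. Regions with 2 ethanol calls and no dexamethasone call numbered 1953. Of these, 916 lacked ethanol replicate 1, 480 lacked replicate 2 and 557 lacked replicate 3, with median reads of 20.5, 20 and 20.5 in the libraries that called them.

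Leaving out 1 library relaxes the rule and raised the count in each case. It was 926, 1057 and 1052 without dexamethasone replicates 1, 2 and 3, and 1460, 1023 and 1101 without ethanol replicates 1, 2 and 3. Demanding an ethanol peak without a dexamethasone peak in each of the 3 equally numbered pairs is the same rule and gave 538. Taken as a replicate block that asks for at least 2 of 3 pairs and the reverse in none, the count was 3902, by a looser rule.

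The ethanol-only region with the highest mean percentile lay at chr6:167200261-167200530. It had 26, 31 and 25 reads in ethanol replicates 1 to 3, where 11 reads were the limit in each library. The authors' folds were 8.16, 9.68 and 7.68, a mean of 8.51 ± 1.04 (SD, n = 3). Its summits lay within 20 bp of each other, no other region was centred within 10 kb, and the nearest dexamethasone peak was 11.3 kb away. At chr10:98994213-98994510 the ethanol libraries had 33, 28 and 22 reads against a limit of 11 in each. The nearest dexamethasone peak was 23.6 kb away there. At chr7:152033911-152034164 there were 34, 27 and 30 reads against limits of 13, 12 and 12. In these 3 regions every library held at least 2 times the reads of its limit, and the percentile still ranged from 30.6 to 58.7.

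The next regions stood over a higher background. At chr22:36938078-36938426 the reads were 30, 32 and 44, with limits of 15, 14 and 17. The region at chr8:23075646-23075937 had 32, 40 and 30 reads, and a weak dexamethasone peak (percentile 7.76 of its list) lay 0.499 kb away. At chr8:143111306-143111649 the reads were 43, 42 and 49 over limits of 21, 23 and 23, the highest background but one among the 12, and a dexamethasone peak at percentile 2.96 lay 0.657 kb away. The region at chr16:4063435-4063708 had 33, 37 and 36 reads, with a region called in all 6 libraries 1.91 kb from it. Ethanol replicate 3 was highest in the region on chromosome 22 and replicate 2 in the first of the pair on chromosome 8, while the last of these 4 regions had the most even percentiles of the 12 (42.6 ± 3.3, SD, n = 3).

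The other 5 of the 12 leading regions differed in how even their libraries were. At chr2:170364201-170364486 the reads were 34, 33 and 25, and at chr13:110436955-110437254 they were 42, 44 and 48, over limits of 22, 23 and 23. The region at chr8:29276268-29276548 had 27, 24 and 29 reads and lay 15.7 kb from the nearest dexamethasone peak. On chromosome X, at chrX:122905322-122905687, the reads were 24, 29 and 25, and 5 other regions were centred within 10 kb. At chr12:32608486-32608828 they were 39, 22 and 28, which put the peak at percentiles 61.2, 18.7 and 42.0 of the 3 lists. That last spread, 21.2 points (SD, n = 3), was the widest of the 12 regions. All 12 kept an ethanol-minus-dexamethasone difference in the share of libraries called of 1 in every alternative that gave them a value. By the rule, leaving out a library, the replicate blocks and autosomes only could not lower it. Only the alternative limits, list length, cover and merging could.

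**Figure D3:**
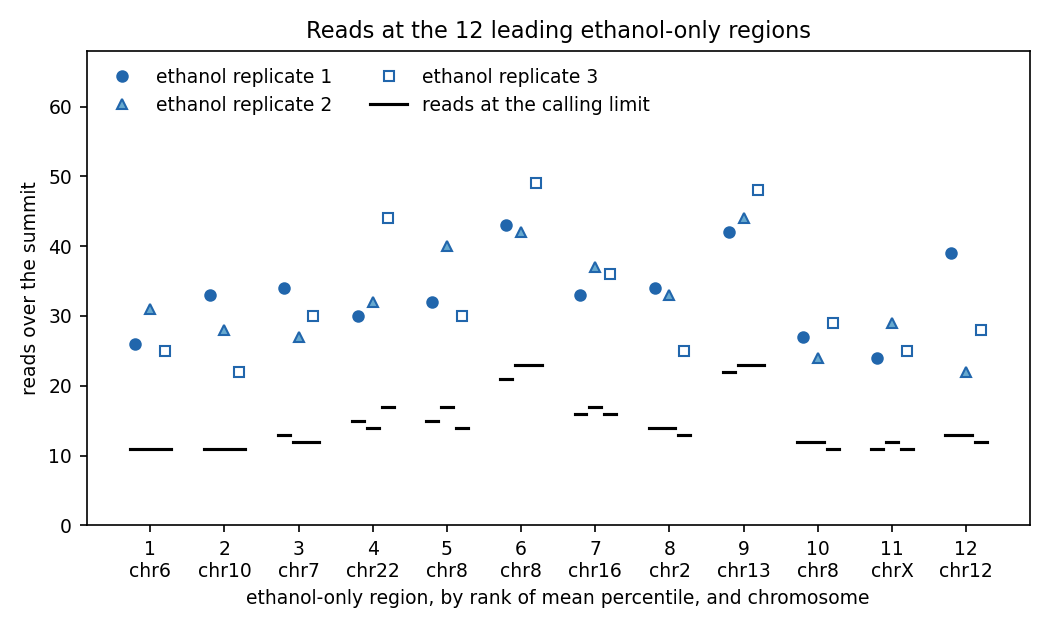
Reads over the summit (vertical axis) at the 12 ethanol-only regions of highest mean percentile, ordered by that percentile with their chromosomes (horizontal axis); blue symbols are the 3 ethanol libraries and short black lines the reads at the calling limit of each. All 36 values lie above their limits, and the region of rank 12 on chromosome 12 has the widest spread in percentile, with 39, 22 and 28 reads.

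The weakest members were barely above the limit. At chr20:29648018-29648375 there were 22, 21 and 25 reads over limits of 20, 18 and 18, which put the peaks at percentiles 0.510, 1.28 and 6.57. At chr3:52901169-52901457 there were 16, 12 and 15 reads over limits of 12, 11 and 11. At chr2:171013582-171013870 the reads were 15, 17 and 19 over limits of 14, 12 and 15. These 3 regions ceased to be called in all ethanol libraries when a −log10 q of at least 5 was required or when the lists were cut to one length.

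The widest members were not among the strongest. The first of them, chr3:196392753-196393407, spanned 655 bp but had 16, 23 and 27 reads and peaks at percentiles 8.31, 32.3 and 37.8. In the 597 bp of chr5:60711992-60712588 the 3 summits lay up to 401 bp apart, with 19, 18 and 19 reads. The peak of ethanol replicate 3 alone spanned all 597 bp, while those of replicates 1 and 2 were 236 and 278 bp wide. When summits within 100 bp were joined instead, the difference in the share of libraries called fell there from 1 to 0.333. With a minimum cover of 50% of the region per peak, the difference fell in all 3 of the widest members, to 0.667 at the first and the third and 0.333 at the second. At chr8:123793386-123793940, the third in width with 555 bp, the summits lay within 13 bp and the reads were 38, 37 and 30.

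The surroundings of the ethanol-only regions were examined next, since position was not part of the rule. A region with calls in all 6 libraries was found at a median of 15.4 kb, centre to centre, and within 10 kb for 201 regions (37.4%). The mixed sets had medians of 8.62 to 22.7 kb, and 6 of 18 lay farther out than the ethanol-only set. Dexamethasone-only regions had a median of 10.2 kb. Of all ethanol-only regions, 218 (40.5%) had no other region of any kind centred within 10 kb and 28 (5.20%) none within 50 kb. In the mixed sets the share without a region within 10 kb was 26.3 to 49.6%, and it was 26.5% for dexamethasone-only regions.

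**Figure D4:**
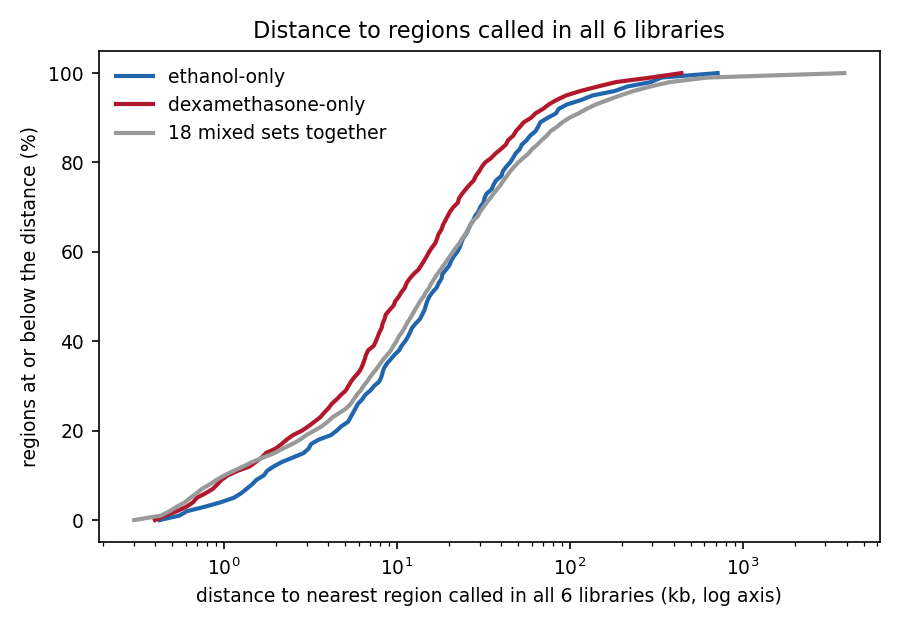
Cumulative share of regions (vertical axis, percent) by their distance from the closest region that every library called (horizontal axis, kb on a log axis). The ethanol-only regions (blue, median 15.4 kb) lie to the right of the pooled mixed regions (grey) at short distances and cross them farther out, and the dexamethasone-only regions (red, median 10.2 kb) lie to the left of both in the middle of the range.

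Isolated and embedded members differed in background more than in rank. The 218 regions with no other region within 10 kb had medians of 20 reads over a background of 2.40 reads and percentile 20.5. The 320 regions with a neighbour had 24 reads over a background of 3.84 reads and percentile 19.4. In the 66 members within 2 kb of a region called in all 6 libraries the median rose to 31.5 reads over 6.34 background reads, while the percentile was 18.4. In 111 members the background was at the lowest value of the list in all 3 ethanol libraries, and their median was 19.3 reads. More reads thus went with more background, but the calling itself requires this, since the limit rises with the background. Its median was 11 reads in isolated members and 14.2 in those with a neighbour. The ratio of reads to the limit had medians of 1.75 in isolated members and 1.64 in those with a neighbour.

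The nearest dexamethasone peak lay a median of 7.41 kb from the edge of an ethanol-only region. It was within 10 kb for 310 regions (57.6%), within 1 kb for 82 (15.2%) and within 0.1 kb for 13 (2.42%). The corresponding distance from a mixed region to the nearest peak of the 3 libraries that had not called it had medians of 4.21 to 10.8 kb. The nearest dexamethasone peak was itself at a median percentile of 37.3 of its list. For the 3 members closest to one, the lack of a dexamethasone call depended on the merging. The gap to a dexamethasone peak was 0.007 kb at chr4:7751329-7751620, 0.039 kb at chr7:98467227-98467724 and 0.043 kb at chr2:102422562-102422842. The difference in the share of libraries called fell from 1 to 0.333, 0 and 0.333 when gaps of 100 bp were merged. Their reads in ethanol replicates 1 to 3 were 20, 28 and 26, then 23, 20 and 23, and then 22, 21 and 27.

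Other members were remote from any dexamethasone peak. The farthest were chr6:70182997-70183208, chr13:35252376-35252606 and chr6:5672874-5673145, at 239.9, 185.2 and 178.4 kb. Their reads were 23, 20 and 19, then 22, 20 and 20, and then 21, 17 and 17 in ethanol replicates 1 to 3, over a limit of 11 in every case. These reads were near or below the median of all members, but the background was at the lowest value of each list. The mean percentiles of the 3 regions were 26.0, 26.3 and 16.9, in the same order, against a median of 19.9 over all members. By rank the first and the second thus lay above the typical member and the third below it.

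The members with the most regions within 50 kb were chr19:41076018-41076257 with 25, chr14:103565498-103566004 with 23 and chr14:103577663-103578096 with 22. The first had 53, 57 and 67 reads over limits of 38, 37 and 37, the highest mean reads of all members (59 reads), and a dexamethasone peak from the strongest part of its list (percentile 98.9) lay 0.087 kb away. Merging across 100 bp ended its difference in calls, with a value of 0. The pair on chromosome 14 was 12.1 kb apart, the closest 2 members in the genome. The first of the pair had 44, 39 and 38 reads and the second 34, 35 and 27, and a dexamethasone-only region was centred 27.7 kb and 39.8 kb away from them.

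Clustering among members was rare. Another ethanol-only region lay within 50 kb for 20 members (3.72%), in 10 pairs, and within 10 kb for none. The mixed sets gave 0 to 4.86%, with 2 of the 18 above the ethanol-only set (0 to 2.96% in the 6 with 1 library of each number), and the dexamethasone-only set 14.8%. These shares grow with the size of a set and were not compared at one size. A dexamethasone-only region lay within 50 kb of 36 members (6.69%) and within 10 kb of 9 (1.67%). The closest was 3.53 kb from the member at chr10:101544928-101545165.

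Members were found on all 24 chromosomes. Chromosome 1 held 60 (11.2%, exact 95% binomial interval 8.62 to 14.1%) against 9.16% of all merged regions. Chromosome 11 held 11 (2.04%, interval 1.03 to 3.63%) against 4.93%, and chromosome 17 held 20 (3.72%, interval 2.29 to 5.68%) against 6.01%. The interval covered the share of all regions on chromosome 1 and on every other chromosome except 11 and 17. On every chromosome the share of members lay between the lowest and the highest of the 18 mixed sets, and on chromosome 11 these ran from 1.77 to 6.34%. The intervals cover counting error only and treat regions as independent.

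Calls in the neighbourhood did not lean to ethanol. Of 619 other regions centred within 10 kb of a member, dexamethasone replicates 1 to 3 called 433, 441 and 422 and ethanol replicates 1 to 3 called 409, 426 and 421. The means were 432 ± 9.5 and 419 ± 8.7 (SD, n = 3 each), and the ranges overlapped. More ethanol than dexamethasone libraries called 128 of these regions, and more dexamethasone than ethanol libraries called 154. Over all merged regions the lean was the other way, with 18244 called by more ethanol and 15976 by more dexamethasone libraries. Members themselves are not among the 619. A peak close to a member cannot have been merged with it, so dexamethasone peaks there are neighbours by the rule. Within 50 kb, 563 of 2823 regions were called by more ethanol and 577 by more dexamethasone libraries.

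Whether accessible sites shared by both treatments also changed beside the members was tested on regions called in all 6 libraries. Reads over the summit were scaled to equal totals, and limma was fitted to their log2 values over 39933 such regions. This main fit ignored the replicate numbers, although equally numbered libraries deviated together. After Benjamini-Hochberg adjustment 93 (0.233%) had an adjusted p under 0.05, of which 88 were higher with dexamethasone and 5 higher with ethanol. With the replicate number as a block, which takes equally numbered libraries as pairs, limma called 314 (0.786%), 241 higher with dexamethasone and 73 with ethanol. When 1 library was left out of the fit without the block, the number was 35 to 134. It was 59, 36 and 134 without dexamethasone replicates 1 to 3, and 54, 35 and 60 without ethanol replicates 1 to 3. The split by direction was as unsteady: the number higher with ethanol was 8, 0 and 43 without dexamethasone replicates 1 to 3 and 3, 0 and 0 without ethanol replicates 1 to 3, with 43 against 91 higher with dexamethasone in the case of 43.

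Shared regions beside members had nearly equal median reads in both treatments. The nearest shared region lay within 10 kb of a member in 200 distinct cases. Their median scaled reads were 53.6, 50.6 and 53.9 in dexamethasone replicates 1 to 3 and 51.9, 52.7 and 52.6 in ethanol replicates 1 to 3. The group means were 52.7 ± 1.85 and 52.4 ± 0.44 reads (SD, n = 3 each), with the ethanol values inside the dexamethasone range. The median log2 difference, ethanol minus dexamethasone, was 0.01, the same as the 0.01 over all shared regions, and −0.02 for both when libraries were scaled by their lowest background. A log2 difference beyond 0.5 in either direction was found in 5% of the 200 and in 2.92% of all shared regions. Of the 200, 1 (0.5%) passed the adjusted threshold, against 0.233% of all shared regions. With the replicate block 5 passed (2.50%, against 0.786%), 4 higher with dexamethasone and 1 with ethanol. For shared regions within 10 kb of dexamethasone-only regions, limma called 4 of 440 (0.909%), each higher with dexamethasone, and 14 of 440 with the replicate block. Beside mixed regions it called 5 of 1871 (0.267%), and 19 of 1871 with the block.

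**Figure D5:**
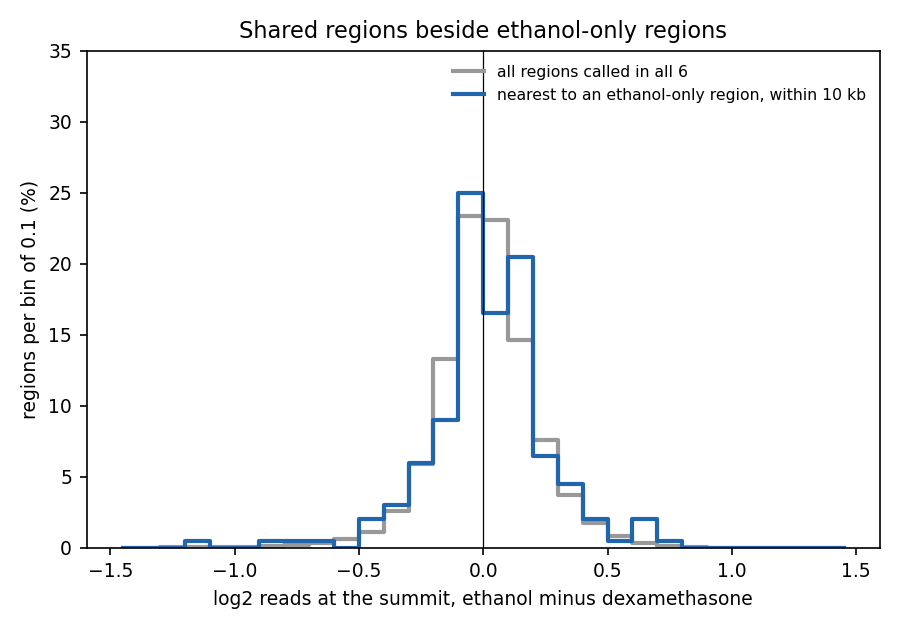
Distribution of the log2 difference in scaled reads, ethanol minus dexamethasone (horizontal axis), as percent of regions per bin of 0.1 (vertical axis), for all 39933 regions called in all 6 libraries (grey) and for the 200 of them nearest to an ethanol-only region within 10 kb (blue). Both are centred near 0 with a median of 0.01, and 4 of the grey regions fall outside the plotted range. Beyond 0.5 in either direction lie 5% of the blue and 2.92% of the grey regions.

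The single shared neighbour that passed without the block was higher with dexamethasone. It lay at chr19:45198640-45199216, with 85, 73 and 56 reads in dexamethasone replicates 1 to 3 and 32, 36 and 28 in ethanol replicates 1 to 3, so the groups did not overlap. The difference, ethanol minus dexamethasone, was −1.16 ± 0.18 on the log2 scale (SE; limma, adjusted p = 0.0029). With the block it had an adjusted p of 3.97e-05, and without 1 library it ranged from 0.00134 to 0.0447 in limma. The ethanol-only member beside it, chr19:45198097-45198373, was centred 0.693 kb away and had 29, 38 and 41 reads over limits of 21, 22 and 23. Its background of 8.19 ± 0.59 reads (SD, n = 3) was above the 2.97 reads of the typical member. At this locus the ethanol call and the stronger dexamethasone signal were thus adjacent, and the pair was singled out after its values were seen. The other 4 shared neighbours were called by limma with the replicate block alone. The one higher with ethanol, chr9:117439678-117440065, had 22, 49 and 53 reads in dexamethasone replicates 1 to 3 and 60, 59 and 77 in ethanol replicates 1 to 3, a log2 difference of 0.74. The 3 higher with dexamethasone, on chromosomes 12, 16 and 20, had log2 differences of −0.67, −0.83 and −0.78.

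The working name of the group speaks of regions lost after dexamethasone. What the lists show is narrower: a weak peak was called in each ethanol library and none in a dexamethasone library. How many reads the dexamethasone libraries had at these sites is not given in the lists, and a loss of accessibility cannot be told apart from a signal just under the calling limit.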

How the data were processed

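DNase-seq libraries from A549 cells (3 per treatment) were analysed from the deposited peak lists in hg19. Tools in the submitters' processing notes are CASAVA 1.3, Bowtie, MACS2 2.1.0 and bedtools; settings are not given in the sources used here. There is 1 list per library. For each summit the authors deposited a ratio (fold enrichment over background) and a p-value and q-value, both as −log10. A deposited score restates the −log10 q and was not used, and a further column gives the summit's offset. Folds and percentiles are the authors' or rest on the authors' values within 1 list.

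Reads over a summit were solved for from fold = (reads + 1)/(background + 1) and a Poisson tail, a formula inferred from the values: 357760 of 357761 peaks fitted a whole number within 0.001 in −log10 p. Whether and how far reads were extended is not given in the sources used here. This step and the fit of shared regions with limma 3.58.1 (R 4.3.3, log2 reads, moderated variances with a trend, 3 against 3 libraries) were chosen after seeing the data. Both were run on simulated data. The simulated folds and p-values followed the same inferred formula, so this did not check the formula. For limma the simulated libraries varied independently, without the link between equally numbered libraries. Python 3.11.15 with pandas 2.3.3 and scipy 1.17.1 did the rest. In the limma fit, deviations of equally numbered libraries from their group means correlated at 0.22, 0.18 and 0.21 over 39933 regions. Differently numbered ones correlated at −0.20 to −0.04. Deviations from a group mean cancel within a treatment, so these negative values follow from the positive ones and are no separate contrast. By the positive values, equally numbered libraries went together, but the main limma fit ignored the numbers. Only the fit with the replicate number as a block took them as pairs. No 2 lists were identical (at most 0.0463% of peaks had the same ends).

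The members and lists were chosen with earlier results of these data known. The rule for named regions took the 12 with the highest mean percentile, and the 3 at each extreme of percentile (low), width, number of neighbours and distance to a dexamethasone peak. Settings varied were the minimum −log10 q (5), lists of one length, 50% cover, gaps of 100 bp, joined summits, autosomes only, a replicate block and leaving out each library. Motifs, gene starts and gene lists were not analysed here, since sequence and annotation of the files' build were not used. Positions count from 1.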

Additional observations from a re-analysis of the deposited data

How the results depend on the processing

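The count of ethanol-only regions was 483 to 642 under the alternatives that keep all libraries and the full rule, 926 to 1460 without 1 library, and 3902 under the replicate block of at least 2 of 3 pairs, where the rule is looser by construction. That block gave a median percentile of 19.1, a median width of 278 bp, 22.3% of regions with another within 50 kb and 73.1% with a dexamethasone peak within 10 kb; the block of 3 of 3 pairs changed nothing. A −log10 q of at least 5 gave a median percentile of 19.2 and fold of 5.50, and for presence alone 20.9 and 5.52 with a width of 283 bp. Lists of one length gave a fold of 5.58. A cover of at least 50% gave a percentile of 21.7, a fold of 5.53, a width of 299 bp, 18.4 kb to a region called in all libraries and 64.2% with a dexamethasone peak within 10 kb. Joined summits gave 21.7, 299 bp, 13.9 kb and 66.7%. Without 1 library, the median percentile was 17.4 to 21.9, the fold 5.17 to 5.54, the width 262 to 290 bp, the distance 12.2 to 15.3 kb, the share with a dexamethasone peak within 10 kb 54.5 to 59.8%, and the share with another ethanol-only region within 50 kb 5.18 to 9.32%. Among shared regions limma called 93, 314 with the replicate block and 35 to 134 without 1 library, of which 5, 73 and 0 to 43 were higher with ethanol. The cause of these shifts was not tested. Of the 27 named regions, 22 to 25 kept their full difference in calls under the alternative limits, list length, cover and merging, and none reversed. Without 1 library and under the replicate blocks all 27 kept it, which was fixed by the rule and is no check. The lists hold no reads for sites without a peak, which limits every statement on the dexamethasone side.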
